A study of Homo sapiens with 12 samples.

Results

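The 10 genes described here encode the MHC class II machinery of antigen-presenting cells: the chains of the classical molecules HLA-DR, HLA-DP and HLA-DQ (HLA-DRA, HLA-DRB1, HLA-DPA1, HLA-DPB1, HLA-DQA1 and HLA-DQB1), the peptide-loading chaperone HLA-DM (HLA-DMA and HLA-DMB), the invariant chain (CD74) and the master transcription activator of the group (CIITA). They were chosen by name as the ligand side of a co-culture, and all 10 had a row among the 55782 gene symbols of the count table. The sequenced RNA came from Jurkat cells, a human T cell leukaemia line that the labels give as positive for the inhibitory receptors LAG3 and PD1, grown together with Raji cells, a B cell line from a human Burkitt lymphoma that the labels give as positive for PDL1, the ligand of PD1. Every culture, isotype controls included, held Raji cells loaded with staphylococcal enterotoxin D at 100 ng/ml and lasted 24 h. The arms were the combination of anti-PD1 (MK3475) with anti-LAG3 (MK4280), anti-PD1 with isotype, anti-LAG3 with isotype, and isotype with isotype. Each was used at 0.01, 0.1 and 1 µg/ml. The labels give that dose for each antibody of a culture, so the highest is 1+1 µg/ml in every arm, isotype included. Each of these 12 conditions had 1 library, from a pellet pooled over wells, so the 3 libraries of an arm differ in dose, and nothing in the labels says that any are repeated cultures. A p-value here is set against the spread of libraries about the fit, part or all of which may be technical. For arm means, fitted as arm plus dose, that spread also takes in dose responses that differ between arms.

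MHC class II molecules are pairs of an alpha and a beta chain that are assembled with the invariant chain, lose it in endosomes and take up a peptide there with the help of HLA-DM. CIITA does not bind DNA itself but joins a complex of RFX, CREB and NF-Y proteins on the promoters of these genes, and B cells express it constitutively, whereas Jurkat cells are described as lacking MHC class II. In this co-culture MHC class II has a double role, since the superantigen bridges it to the T cell receptor and LAG3 binds it as its ligand. The RNA of the lines was not separated, so these data do not say which line a transcript came from. In such bulk libraries fewer cells of a type and less RNA per cell cannot be told apart.

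The library totals ran between 23593973 and 36581754 counts, the highest being isotype at 1 µg/ml. The 10 genes together took 0.533% to 0.602% of all counts in a library, again with the highest share in isotype at 1 µg/ml. All 10 passed the filter on low counts, with 1246 counts in the least covered value (HLA-DMB) and 102099 in the most covered (CD74). All 24 Raji B markers (such as CD79A and PAX5) and all 24 Jurkat T markers (such as CD3E and TRAC) were counted and tested. The summed level of the B markers was 5582 to 5947 CPM (counts scaled to library size, the sizes corrected by TMM, the trimmed mean of M values) in the combination, 5631 to 5852 in anti-PD1, 5441 to 5580 in anti-LAG3 and 5456 to 5965 in isotype. That of the T markers was 1858 to 2179 CPM in the combination, 1745 to 2022 in anti-PD1, 1859 to 2035 in anti-LAG3 and 1682 to 1894 in isotype. LAG3 itself, the receptor targeted by MK4280, had 0 to 2 counts per library, at most 0.0706 CPM, although the labels give the Jurkat cells as LAG3 positive. A difference between arms in LAG3 RNA was thus not detectable at this depth, and the cause of the low counts was not tested.

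The promoters show what some of these genes share in sequence. Windows of 300 bases, from 250 before to 50 after a gene's start, were taken from RefSeq (GRCh38.p14), in which 8 of the 10 genes had an entry; HLA-DRA and CIITA were not matched. The printed stretches carry, in capitals, the letters AGNNACNGA of an X box, bound by RFX, and ATTGG of a Y box, bound by NF-Y. The X letters were chosen after these promoters had been read. They are given 5′ to 3′ on the strand of the gene.
HLA-DRB1 (chr6:32589884-32589933, minus strand): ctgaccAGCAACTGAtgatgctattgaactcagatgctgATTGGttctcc
HLA-DQA1 (chr6:32637298-32637348, plus strand): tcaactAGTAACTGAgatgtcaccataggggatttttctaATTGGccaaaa
HLA-DQB1 (chr6:32666735-32666784, minus strand): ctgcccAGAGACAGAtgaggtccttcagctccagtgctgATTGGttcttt
HLA-DMA (chr6:32953166-32953216, minus strand): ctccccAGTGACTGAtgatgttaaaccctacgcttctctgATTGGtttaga
HLA-DPA1 (chr6:33073695-33073754, minus strand): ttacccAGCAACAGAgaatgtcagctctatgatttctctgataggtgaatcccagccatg
HLA-DPB1 (chr6:33075843-33075901, plus strand): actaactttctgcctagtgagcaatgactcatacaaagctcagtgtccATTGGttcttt

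In the first 4 of these the Y letters began 33 or 34 bases after the first X letter. The X letters alone, on either strand, stood in 15.3% of all 35116 windows and the Y letters in 34.6%. Both on the same strand, with 25 to 45 bases between their first letters, stood in 91 windows, or 0.259%. Of the 8 genes with a window 4 had this pair, and so did HLA-DRB5 and HLA-DOA among the 6 other class II genes with one. On the strand of the gene, HLA-DPA1 had a window with the X letters but no Y letters, and HLA-DPB1 the Y letters but no X letters. CD74 had only the Y letters on the opposite strand, and HLA-DMB had no such pair. These matches are of letters only and say nothing of binding in these cells.

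The level of each gene was set against the others per length, in TPM (counts divided by gene length and scaled to the library) averaged over the 12 libraries. With the length given in the count table, which for several genes is much longer than the principal transcript (6927 against 1591 bases for HLA-DQA1), HLA-DRA had 3162 ± 139 TPM (SD, n = 12), CD74 2653 ± 141 and HLA-DRB1 1457 ± 65.3. HLA-DPB1 had 309.8 ± 16.7 TPM, HLA-DPA1 224.4 ± 7.37, HLA-DQA1 148.1 ± 7.14, HLA-DMA 112.9 ± 3.87 and HLA-DQB1 86.5 ± 4.81. CIITA (41.7 ± 3.47 TPM) and HLA-DMB (39.03 ± 2.56 TPM) stood last, and these 2 did not differ beyond their spread. With the length of the principal GENCODE transcript in place of the deposited one, a choice made after seeing the data, CD74 came first at 8611 ± 458 TPM, ahead of HLA-DRA at 3162 ± 139. HLA-DPA1 (756.8 ± 24.9 TPM) and HLA-DQA1 (644.7 ± 31.1) then stood above HLA-DPB1 (554.2 ± 29.9). HLA-DMA (254.8 ± 8.74 TPM) and HLA-DQB1 (244.6 ± 13.6) differed by less than their spread. CIITA was lowest at 37.6 ± 3.13, but the longest principal transcript was taken. For CIITA its 16059 bases exceed the deposited 14503, so the place of CIITA depends on the transcript taken. HLA-DRA and CD74 thus change places with the length used, while the DR chains stood above all DP, DQ and DM chains by both.

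**Figure D1:**
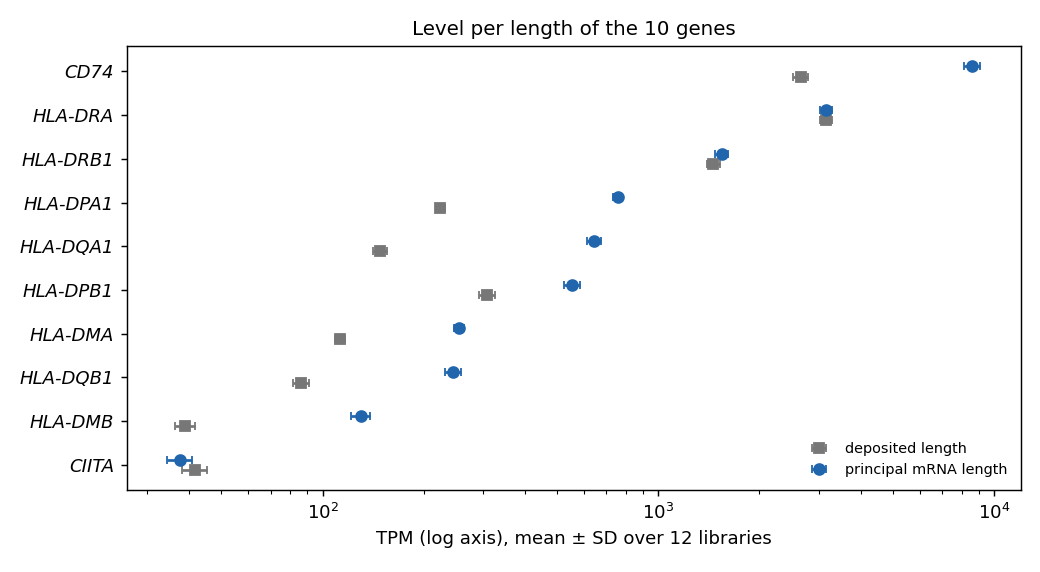
Level per length (TPM, log axis) of the 10 genes, mean ± SD over 12 libraries, by the deposited length (squares) and by the length of the principal transcript (circles). CD74, HLA-DRA and HLA-DRB1 lie above the other 7 genes by both lengths.

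Across the libraries these levels moved little. In TMM-scaled CPM, the highest library was 1.13 times the lowest for HLA-DPA1 and 1.29 times for CIITA, with the other 8 genes in between. The coefficient of variation over the 12 libraries was 4.05% for HLA-DPA1, 6.64% for CD74 and 7.85% for CIITA. Between partner chains, the CPM of HLA-DRA was 2.02 to 2.35 times that of HLA-DRB1, HLA-DPA1 1.39 to 1.65 times HLA-DPB1, HLA-DQA1 2.18 to 2.82 times HLA-DQB1 and HLA-DMA 1.41 to 1.97 times HLA-DMB. The coefficient of variation of these ratios over the 12 libraries was 4.51% (DP) to 9.28% (DM). In the DR, DP, DQ and DM pairs alike the highest ratio was in isotype at 1 µg/ml.

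**Figure D2:**
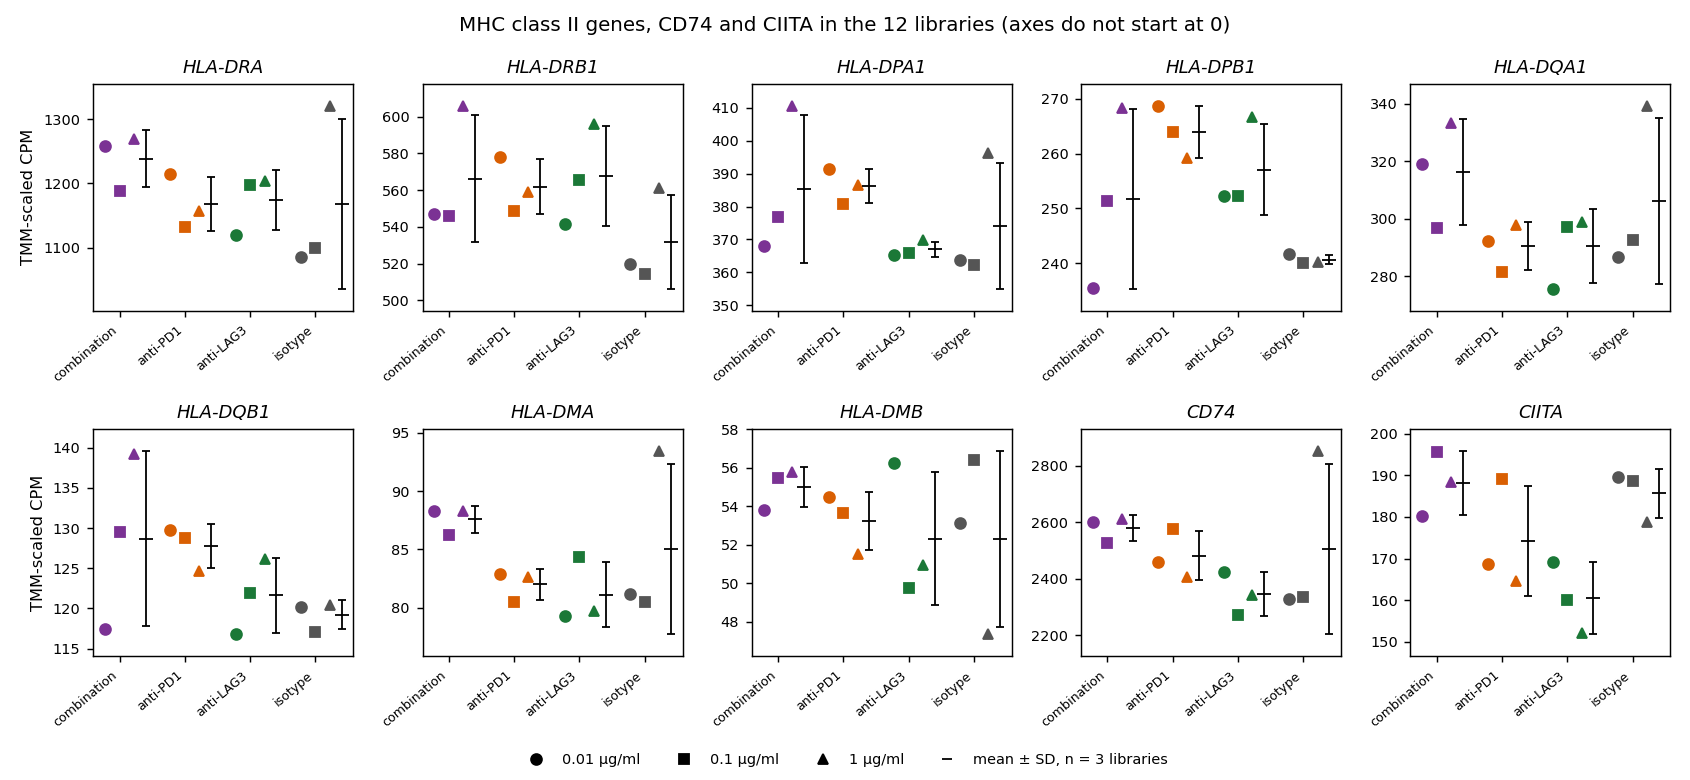
TMM-scaled CPM of each gene in the 12 libraries (circle 0.01, square 0.1, triangle 1 µg/ml), with the arm mean ± SD (n = 3 libraries) beside the points. The anti-LAG3 points of CIITA lie at 152.1 to 169.3 CPM, below all isotype points, while CD74 and HLA-DRA stand highest in isotype at 1 µg/ml.

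CIITA, on chromosome 16 (GRCh38, 10866222 to 10943021, plus strand), was the 1 gene of the 10 that changed between arms. In order of dose (0.01, 0.1 and 1 µg/ml) it read 169.3, 160.0 and 152.1 CPM in the anti-LAG3 libraries, against 189.5, 188.6 and 178.8 in the isotype libraries. All anti-LAG3 libraries thus lay below all isotype libraries. CIITA fell in the anti-LAG3 arm by 0.21 ± 0.05 (SE) on the log2 scale, to 0.864 times the isotype level (adjusted p = 0.00765; adjusted p-values are from the quasi-likelihood test of edgeR, Benjamini-Hochberg over all genes, unless the authors' table is named). In that comparison 10.0% of the 15535 genes tested passed an adjusted p of 0.05, so 1 of the 10 genes is at the background.

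The combination libraries held CIITA at 180.2, 195.7 and 188.5 CPM (0.01, 0.1 and 1 µg/ml). CIITA was higher in the combination than in anti-LAG3 by 0.23 ± 0.05 log2 (adjusted p = 0.00854), where 5.75% of all genes were called. Against isotype the combination differed by 0.02 ± 0.05 log2 (adjusted p = 0.993). Anti-PD1 libraries were spread over the ranges of anti-LAG3 and of the combination, with 168.8, 189.2 and 164.6 CPM. Their difference from isotype of -0.09 ± 0.05 log2 did not pass (adjusted p = 0.301). The fall with anti-LAG3 and the difference between the combination and anti-LAG3 share the anti-LAG3 libraries and are not independent of each other.

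The authors' deposited table for each antibody library, which sets it against all 3 isotype libraries, held CIITA at log2 fold changes of -0.13, -0.22 and -0.29 for anti-LAG3 at 0.01, 0.1 and 1 µg/ml. Of these, the one at 1 µg/ml passed in the authors' deposited table (adjusted p = 0.0432), and it was the 1 value to pass among the 10 genes in the 9 deposited tables. In the authors' deposited table for that library 216 of 15102 genes (1.43%) passed, and in the others 0 to 250. The dose slope of CIITA within anti-LAG3 was -0.08 ± 0.04 log2 per 10-fold dose and did not pass (adjusted p = 0.709).

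The CIITA call was lost without some single libraries and with a covariate for the mixture. Leaving out anti-LAG3 at 1 µg/ml gave -0.19 ± 0.06 log2 (adjusted p = 0.0627), and leaving out anti-LAG3 at 0.1 µg/ml gave -0.17 ± 0.05 (adjusted p = 0.0795). The difference between the combination and anti-LAG3 was likewise lost without either of these (adjusted p = 0.0783 and 0.083) or without the combination at 0.1 µg/ml (adjusted p = 0.0746). The mean log2 CPM of T markers minus that of B markers was -1.23, -1.15 and -1.13 in anti-LAG3 at 0.01, 0.1 and 1 µg/ml, against -1.36, -1.42 and -1.38 in isotype. With this difference as a covariate CIITA was at -0.18 ± 0.10 log2 (adjusted p = 0.471), and 6 genes in all passed in that comparison. The marker difference did not overlap between these arms, so this fit has a larger standard error and cannot separate the arm from the mixture. Taken as a percentage of the summed B markers, CIITA stood at 3.03%, 2.93% and 2.80% in anti-LAG3 and at 3.46%, 3.46% and 3.00% in isotype, where the groups overlap. With offsets for GC content and gene length the fall was 0.13 ± 0.04 log2 (adjusted p = 0.0557). The deposited length of CIITA exceeds that of 97.6% of the genes tested.

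The other 9 genes did not pass in any of the 3 comparisons with isotype. In anti-LAG3 the 10 genes ran between -0.21 and 0.09 log2 with a median of -0.01 and 5 above 0, beside a median of -0.00149 for all genes. In anti-PD1 they ran between -0.09 and 0.13 with a median of 0.02 and 6 above 0, and none passed (1 at an unadjusted p under 0.05, 0 by DESeq2), where 3.82% of all genes were called and 18.4% had an unadjusted p under 0.05. In the combination all 10 lay above 0, between 0.02 and 0.11, with a median of 0.06 beside -0.00318 for all genes, and none passed (1 at an unadjusted p under 0.05, 0 by DESeq2). There 0.00644% of all genes, that is 1 gene, were called, and 6.68% had an unadjusted p under 0.05. The standard errors of these differences were 0.04 to 0.06 log2 throughout. HLA-DPB1 in anti-PD1, at 0.13 ± 0.04 log2, did not pass, so differences well above 1 standard error can have gone uncalled.

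**Figure D3:**
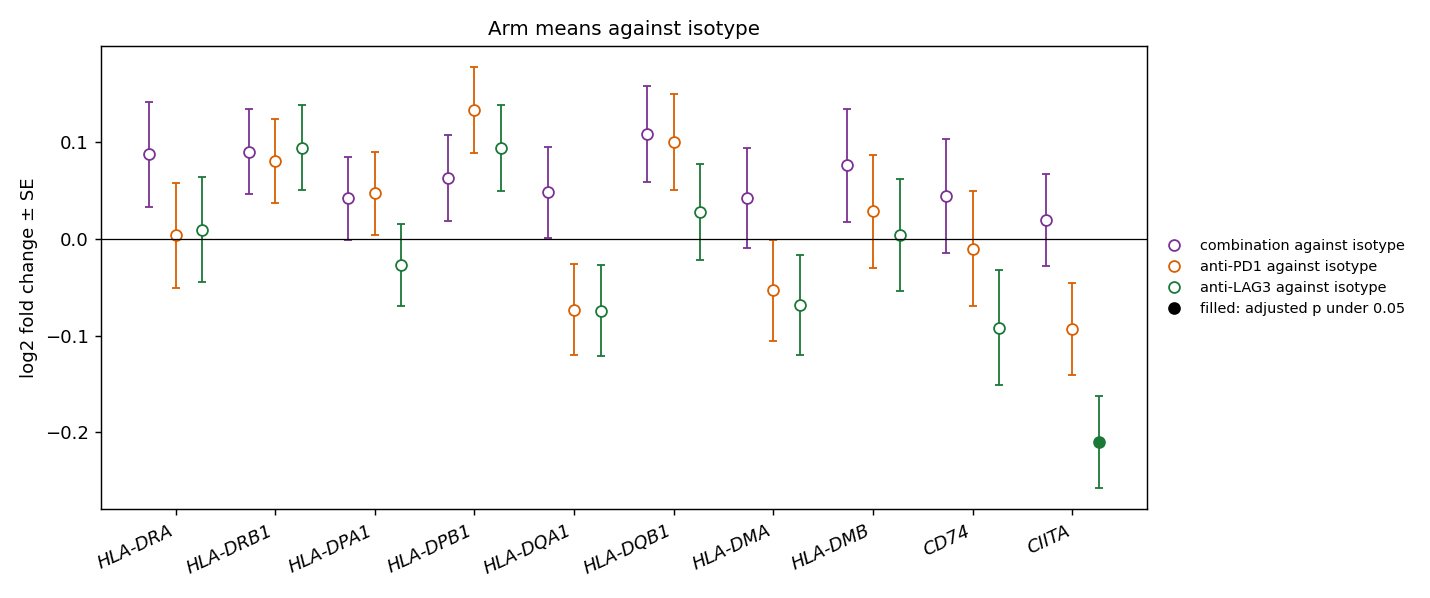
Log2 fold change ± SE of each arm mean against isotype (combination, anti-PD1 and anti-LAG3, 3 libraries each). The filled point, CIITA in anti-LAG3 at -0.21, passed an adjusted p of 0.05, and the other 29 points did not.

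HLA-DPB1, the beta chain of HLA-DP (chromosome 6, 33075926 to 33087201, plus strand), came nearest to passing among the HLA genes in the arm means against isotype. With dose it read 268.7, 264.0 and 259.2 CPM for anti-PD1 and 252.2, 252.3 and 266.6 for anti-LAG3, against 241.7, 240.1 and 240.3 in isotype. Both single-antibody arms lay wholly above isotype, whose libraries spread least (240.7 ± 0.888 CPM, SD, n = 3). The differences were 0.13 ± 0.04 log2 for anti-PD1 (adjusted p = 0.094) and 0.09 ± 0.04 for anti-LAG3 (adjusted p = 0.19). Without anti-PD1 at 1 µg/ml, HLA-DPB1 passed at 0.18 ± 0.05 log2 (adjusted p = 0.0486). Its alpha chain partner HLA-DPA1 (33064569 to 33080775, minus strand) had 391.3, 380.9 and 386.5 CPM in anti-PD1 and 363.7, 362.4 and 396.1 in isotype, where the groups overlap.

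Libraries that did not overlap isotype were found for CIITA (below) and HLA-DPB1 (above) in anti-LAG3, where 28.9% of all genes did not overlap. In anti-PD1 they were found for HLA-DPB1 and HLA-DQB1 (both above), where 22.2% of all genes did not overlap. None of the 10 genes was separated in the combination, where 8.48% of all genes were. Each of these counts is at or below its background.

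The DR chains were the next to follow. HLA-DRB1 (32578769 to 32589848, minus strand), the beta chain of HLA-DR, had 546.9, 546.1 and 606.0 CPM in the combination, 578.0, 548.5 and 559.0 in anti-PD1 and 541.7, 565.3 and 596.0 in anti-LAG3, against 520.0, 514.3 and 561.2 in isotype. The isotype libraries at 0.01 and 0.1 µg/ml were the lowest of the 12, and isotype at 1 µg/ml lay among the antibody libraries. The differences from isotype were 0.09 ± 0.04 log2 for the combination (adjusted p = 0.75), 0.08 ± 0.04 for anti-PD1 (adjusted p = 0.332) and 0.09 ± 0.04 for anti-LAG3 (adjusted p = 0.183). The near-identical HLA-DRB5 gave 0.10 ± 0.04, 0.10 ± 0.04 and 0.11 ± 0.04 log2 in the same order, with none passing. HLA-DRA (32439842 to 32445046, plus strand), the shared alpha chain, differed from isotype by at most 0.09 ± 0.05 log2, in the combination (adjusted p = 0.882).

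HLA-DQB1 (32659467 to 32668383, minus strand), the beta chain of HLA-DQ, was the 1 gene of the 10 with a dose slope that passed within its arm. In CPM its level in the combination was 117.4 at 0.01, 129.5 at 0.1 and 139.2 at 1 µg/ml, against 120.2, 117.1 and 120.4 in isotype. Per 10-fold dose it rose by 0.12 ± 0.03 log2 within the combination (adjusted p = 0.0282), an arm in which 4.27% of all genes passed. The difference between this slope and the isotype slope was 0.12 ± 0.05 and did not pass (adjusted p = 0.141). Without the combination at 1 µg/ml the slope was 0.14 ± 0.07 (adjusted p = 0.574), and without the combination at 0.01 µg/ml 0.10 ± 0.07 (adjusted p = 0.847). It also missed the threshold with DESeq2 (adjusted p = 0.107), without the filter on low counts (0.0717) and without any 1 of the anti-LAG3 libraries (0.0546 to 0.0551). HLA-DPB1 had 235.5, 251.4 and 268.2 CPM over the same doses, a slope of 0.09 ± 0.03 (adjusted p = 0.0825). HLA-DQA1 (32628179 to 32647062, plus strand), the alpha chain of HLA-DQ, had 319.0, 296.8 and 333.2 CPM there, with no steady order by dose.

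Within isotype none of the 10 genes passed the slope test, where 0.856% of all genes did, although 4 of the 10 had an unadjusted p under 0.05 and 2 passed by DESeq2. Of all genes, 13.7% had such an unadjusted p and 108 (0.695%) passed by DESeq2. The invariant chain gene CD74 (chromosome 5, 150401637 to 150412929, minus strand) had 2329, 2334 and 2853 CPM in isotype at 0.01, 0.1 and 1 µg/ml. HLA-DRA had 1085, 1099 and 1321 CPM over the same doses, and both genes were highest of all 12 libraries in isotype at 1 µg/ml. Their slopes were 0.15 ± 0.04 and 0.14 ± 0.04 log2 per 10-fold dose (adjusted p = 0.0531 and 0.0527). Without isotype at 1 µg/ml they were 0.0022 ± 0.07 and 0.02 ± 0.07, and in the DESeq2 fit their adjusted p was 0.0236 and 0.0249. HLA-DQA1 (286.7, 292.8 and 339.4 CPM) and HLA-DMA (81.2, 80.5 and 93.5 CPM) were likewise highest in that library, whereas HLA-DMB had its lowest value of all 12 there, at 47.4 CPM. That library also had the most counts, the highest summed B markers and the highest share of counts in the 10 genes; the part of these in the slopes was not tested.

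In the combination CD74 had 2601, 2527 and 2610 CPM and HLA-DRA 1259, 1188 and 1269, flat over dose. Set against the isotype slope, CD74 was at -0.14 ± 0.05 in the combination, -0.16 ± 0.05 in anti-PD1 and -0.17 ± 0.05 in anti-LAG3 (adjusted p = 0.119, 0.193 and 0.361). These 3 differences share the isotype libraries. None of the 10 genes passed any of these slope comparisons, in which 4.63% of all genes were called in the combination, 0.264% in anti-PD1 and 0.0708% in anti-LAG3. At an unadjusted p under 0.05 the counts were 4, 3 and 1 of the 10, beside 17.8%, 11.1% and 7.99% of all genes, and with DESeq2 none of the 10 passed. Within anti-LAG3 and within anti-PD1 no gene of the 10 passed either, where 0.18% and 0.206% of all genes did (1 and 0 of the 10 at an unadjusted p under 0.05, beside 7.25% and 5.37% of all genes, and 0 in both by DESeq2).

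**Figure D4:**
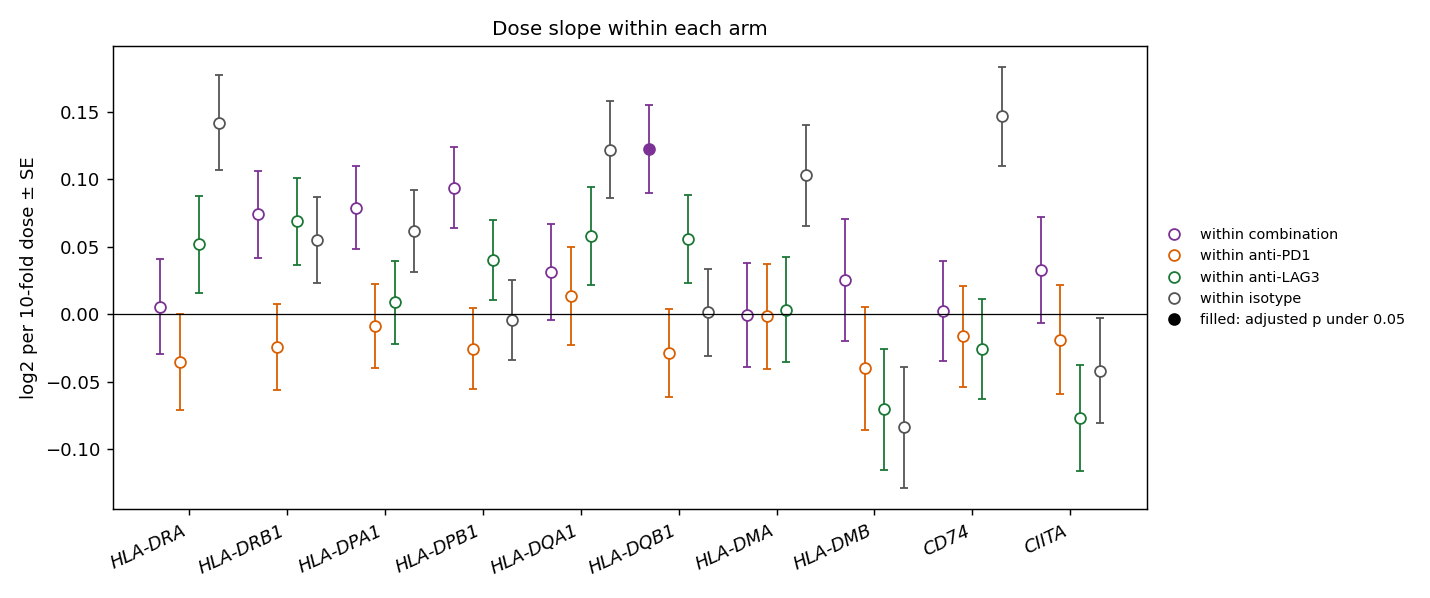
Dose slope (log2 per 10-fold dose ± SE) of each gene within each arm, 3 libraries per arm. HLA-DQB1 within the combination (filled, 0.12) passed an adjusted p of 0.05. The isotype slopes of CD74 and HLA-DRA, at 0.15 and 0.14, are as large and rest on isotype at 1 µg/ml.

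Between the antibody arms, the combination lay above anti-LAG3 in 8 of 10 genes, with a median of 0.08 log2 beside 0.00407 for all genes, and CIITA alone passed, where 5.75% of all genes did. In that comparison 20 of the 24 Raji B markers also lay above 0, with a median of 0.09 and 5 higher. The Jurkat T markers had a median of -0.08, with 1 higher and 2 lower. The part of these in the values of the 10 genes was not tested. CD74 had 2601, 2527 and 2610 CPM in the combination, against 2425, 2273 and 2341 in anti-LAG3. The difference of 0.14 ± 0.06 log2 did not pass (adjusted p = 0.19). The combination lay above anti-PD1 in 8 of 10 genes too, with a median of 0.05 and none passing (2 at an unadjusted p under 0.05, 0 by DESeq2), where 0.354% of all genes were called and 14.0% had an unadjusted p under 0.05. HLA-DQA1 was nearest there, at 0.12 ± 0.05 log2 (adjusted p = 0.24). Between anti-PD1 and anti-LAG3 no gene of the whole table passed (0.0% called by edgeR, and 0 by DESeq2). There 691 genes, or 4.45% of all, had an unadjusted p under 0.05. Of the 10 genes 1 did, CIITA at 0.12 ± 0.05 log2.

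HLA-DMA and HLA-DMB, the chains of the peptide exchanger HLA-DM (chromosome 6, 32948613 to 32969094 and 32934629 to 32941070, minus strand), passed in no comparison. HLA-DMA had 88.3, 86.2 and 88.3 CPM in the combination at 0.01, 0.1 and 1 µg/ml, against 79.3, 84.4 and 79.7 in anti-LAG3. The difference was 0.11 ± 0.05 log2 (adjusted p = 0.219). HLA-DMB ran between 47.4 and 56.4 CPM over all 12 libraries.

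Among the other class II genes, HLA-DOA, a chain of the HLA-DM inhibitor HLA-DO, had 109.4 to 127.2 CPM, its partner HLA-DOB 19.3 to 23.96, HLA-DRB5 97.1 to 120.0, HLA-DQA2 8.30 to 10.8 and HLA-DQB2 8.25 to 10.9 CPM. HLA-DPB2 (0.643 to 1.06 CPM), HLA-DRB9 (0.171 to 0.666) and the antisense RNA HLA-DQB1-AS1 (0.1998 to 0.661) were near the limit of counting. Of the 9 that were tested, none passed against isotype in any arm. HLA-DRB6, a pseudogene of the DRB family (chromosome 6, 32552713 to 32560022, minus strand), had opposite dose trends in 2 arms. Its level was 20.0, 14.9 and 13.4 CPM in the combination at 0.01, 0.1 and 1 µg/ml, against 13.1, 13.8 and 22.7 in isotype. The slope in the combination minus that in isotype was -0.71 ± 0.10 log2 per 10-fold dose (adjusted p = 4.83e-05). Without isotype at 1 µg/ml it was -0.37 ± 0.15 (adjusted p = 0.684), and without the combination at 0.01 µg/ml -0.57 ± 0.16 (adjusted p = 0.15). How reads shared by the DRB copies were counted is not given in the sources used here, so the split between HLA-DRB1, HLA-DRB5 and HLA-DRB6 is uncertain.

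Of 8 genes of the RFX, CREB and NF-Y complex, all tested, 1 passed in anti-LAG3 against isotype, where 10.0% of all genes did: RFXANK, an RFX subunit, rose by 0.18 ± 0.06 log2 (adjusted p = 0.0405). With offsets for GC content and gene length it was at 0.05 ± 0.05 (adjusted p = 0.59). Its call was also lost without any 1 anti-LAG3 library (adjusted p = 0.0906 to 0.135). The same held without isotype at 0.01 or 0.1 µg/ml (adjusted p = 0.199 and 0.232). The median of the 8 was 0.01. None passed in anti-PD1 or the combination against isotype. RFX5, the most abundant by CPM, had 165 to 177 CPM over all libraries.

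Of 20 regulators of CIITA, 4 fell and none rose in anti-LAG3 against isotype, with a median of -0.07 log2, where 10.0% of all genes passed. EP300, a histone acetyltransferase and coactivator, had 137, 116 and 117 CPM in anti-LAG3 at 0.01, 0.1 and 1 µg/ml, against 156, 158 and 145 in isotype. It fell by 0.31 ± 0.05 log2 (adjusted p = 0.00162). CREBBP, its paralogue, fell by 0.50 ± 0.12 (adjusted p = 0.0371), and KAT2B, another acetyltransferase, fell by 0.19 ± 0.06 (adjusted p = 0.045). PAX5, the B cell identity factor, had 357, 323 and 334 CPM in anti-LAG3, against 402, 392 and 373 in isotype, and fell by 0.20 ± 0.05 (adjusted p = 0.0115). With the T minus B marker covariate none of these 4 passed (adjusted p = 0.294 to 0.748), in a fit that cannot separate the arm from the mixture. PAX5 is itself among the B markers of that covariate. The calls of CREBBP, KAT2B and PAX5 were also lost without some single libraries, while EP300 passed without each. In anti-PD1 EP300 fell by 0.21 ± 0.05 (adjusted p = 0.0367) and no other of the 20 passed; this call was lost without any 1 anti-PD1 or isotype library, and without anti-PD1 at 0.01 µg/ml EP300 was at -0.15 ± 0.06 (adjusted p = 0.325). In the combination none passed against isotype. Against anti-LAG3, EP300, PAX5 and JAK1 were higher in the combination, by 0.25, 0.21 and 0.17 log2, and each call was lost without some single libraries. TCF3, the most abundant regulator by CPM, averaged 629 CPM and did not pass in any arm against isotype.

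Beside this fall in anti-LAG3, 3 of 24 Raji B markers fell, EBF1 by 0.26 ± 0.06, PAX5, which is on both lists, and POU2AF1 by 0.17 ± 0.05 log2, and CD79B rose by 0.16 ± 0.05. Each of these 4 was also lost without some single libraries. With offsets for GC content and gene length CD79B was at 0.03 ± 0.05 log2 (adjusted p = 0.764). The median of the 24 was -0.06. Of 24 Jurkat T markers 4 rose (TRBC1, ZAP70, CD3D and CD247, by 0.24 to 0.27 log2) and none fell, with a median of 0.17. Both counts, 4 of 24, stand beside the 10.0% of all genes called in that comparison. The part of the balance between lines in the CIITA result was not tested, since the covariate above cannot separate it from the arm.

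**Figure D5:**
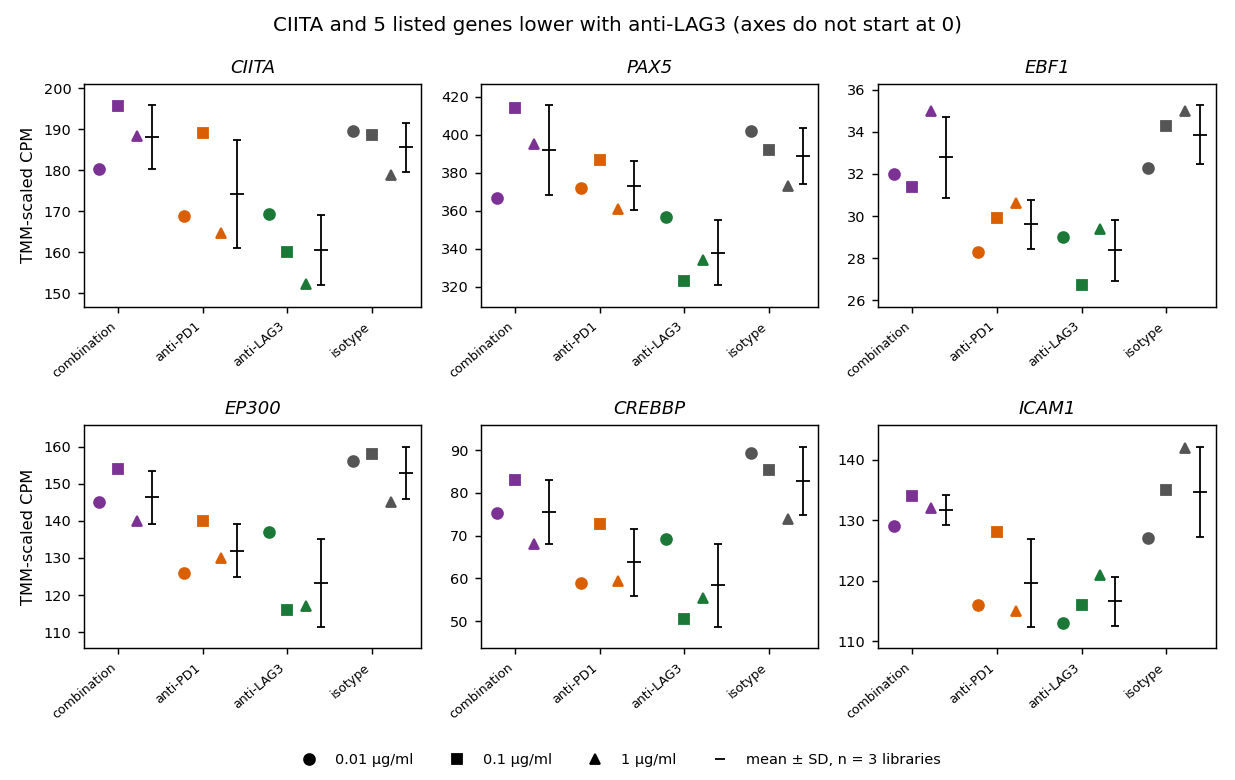
TMM-scaled CPM of CIITA and of 5 listed genes that also fell in anti-LAG3 against isotype (circle 0.01, square 0.1, triangle 1 µg/ml), with arm mean ± SD (n = 3 libraries). EP300 has 116 to 137 CPM in anti-LAG3 and 145 to 158 in isotype, and CIITA 152.1 to 169.3 and 178.8 to 189.5.

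Of 18 processing and turnover genes tested, 2 rose and 1 fell in anti-LAG3 against isotype, where 10.0% of all genes passed. CST3, the cathepsin inhibitor cystatin C, had 21.0, 20.1 and 23.6 CPM in anti-LAG3 and 14.5, 16.0 and 18.4 in isotype and rose by 0.40 ± 0.08 log2 (adjusted p = 0.00261). CD63, a tetraspanin of class II compartments, rose by 0.19 ± 0.06 (adjusted p = 0.0467), and MARCH1, the ubiquitin ligase that removes class II from the surface, fell by 0.22 ± 0.07 (adjusted p = 0.045). The calls of CD63 and MARCH1 were lost by DESeq2 (adjusted p = 0.0538 and 0.0615) and without some single libraries. With offsets for GC content and gene length CD63 was at 0.096 ± 0.057 log2 (adjusted p = 0.377) and MARCH1 at -0.107 ± 0.065 (adjusted p = 0.39). CST3 also rose in anti-PD1, by 0.33 ± 0.08 (adjusted p = 0.0231), a call that was lost without anti-PD1 or isotype at 0.01 or 0.1 µg/ml (adjusted p = 0.119 to 0.221). CST3 and CTSB, a lysosomal protease, were lower in the combination than in anti-LAG3, by -0.29 ± 0.08 and -0.23 ± 0.07 log2 (adjusted p = 0.0312 and 0.0408). In that comparison 5.75% of all genes were called. Both calls were lost without any 1 anti-LAG3 library (adjusted p = 0.0678 to 0.275) and without the combination at 0.1 or 1 µg/ml. That of CTSB was also lost by DESeq2 (adjusted p = 0.0517). Within the combination 2 of the 18 genes passed the slope test, where 4.27% of all genes did. CD82, a tetraspanin and the most abundant of this list by CPM, had 184, 217 and 260 CPM there at 0.01, 0.1 and 1 µg/ml, against 193, 190 and 192 in isotype. Its slope was 0.25 ± 0.03 (adjusted p = 3.05e-06), and 0.26 ± 0.04 against the isotype slope (adjusted p = 0.000459). When isotype at 1 µg/ml was left out, the difference between the slopes was 0.28 ± 0.07 (adjusted p = 0.141). CD82 also passed within anti-LAG3, at 0.14 ± 0.03 (adjusted p = 0.0472), where 0.18% of all genes did. It had 202, 221 and 245 CPM there at 0.01, 0.1 and 1 µg/ml. Against the isotype slope 0 of the 18 genes passed in anti-LAG3. CTSS, the protease that trims the invariant chain, rose by 0.16 ± 0.04 per 10-fold dose in the combination (adjusted p = 0.0188), a call that was lost with DESeq2 (adjusted p = 0.119), without the combination at 1 µg/ml (0.24 ± 0.08, adjusted p = 0.304) and without that at 0.01 µg/ml (0.08 ± 0.08, adjusted p = 0.922).

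Of 9 coreceptors and ligands 4 could be tested, and none passed against isotype in any arm. CD4, the class II coreceptor, had 0.548 to 1.67 CPM in the combination, 0.953 to 1.14 in anti-PD1 and 0.717 to 1.28 in anti-LAG3. In isotype it had 1.42 to 1.73 CPM, and over all libraries 14 to 62 counts. MIF, a ligand of CD74, had 112, 98.0 and 106 CPM in the combination at 0.01, 0.1 and 1 µg/ml and 127, 115 and 109 in anti-PD1, against 87.9, 94.3 and 121 in isotype. Within isotype its slope was 0.23 ± 0.04 (adjusted p = 0.00474). Its slope was lower than that of isotype by -0.27 ± 0.06 in the combination (adjusted p = 0.00378) and -0.34 ± 0.06 in anti-PD1 (adjusted p = 0.00345). All 3 calls were lost without isotype at 1 µg/ml. The slope within isotype was then 0.10 ± 0.08 (adjusted p = 1.0), and the differences were -0.14 ± 0.09 in the combination (adjusted p = 0.923) and -0.21 ± 0.09 in anti-PD1 (adjusted p = 1.0). No gene of the whole table passed within isotype or in the anti-PD1 slope against isotype without that library. CXCR4, the most abundant of these by CPM and a signalling partner of CD74, had a slope in the combination that lay below that of isotype by -0.22 ± 0.05 (adjusted p = 0.0109). With isotype at 1 µg/ml left out this was -0.12 ± 0.08 (adjusted p = 0.93), and with the combination at 0.01 µg/ml left out -0.09 ± 0.08 (adjusted p = 0.917).

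Of 8 B cell costimulation genes 1 changed against isotype: ICAM1, an adhesion ligand of T cell integrins, fell by 0.20 ± 0.05 log2 in anti-LAG3 (adjusted p = 0.00869) and by 0.17 ± 0.05 in anti-PD1 (adjusted p = 0.0421), where 10.0% and 3.82% of all genes passed. The first was lost without anti-LAG3 at 0.1 µg/ml (adjusted p = 0.0782) and with the T minus B marker covariate (adjusted p = 0.613). The second was lost on leaving out any 1 anti-PD1 library but that at 0.1 µg/ml, or any 1 isotype library. ICAM1 was higher in the combination than in anti-LAG3 by 0.17 ± 0.05 (adjusted p = 0.0378), where 5.75% of all genes were called. This call was lost without any 1 anti-LAG3 or combination library (adjusted p = 0.0769 to 0.207). CD83, the most abundant by CPM, averaged 186.8 CPM, and CD80 and CD86, ligands of CD28, did not pass.

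By pattern over the 12 libraries, the mean log2 CPM of the 8 HLA genes was most like RFTN1 (Pearson r = 0.942), NFKBIA (0.924), COX10 (0.919), APOBEC3G (0.917) and GLB1 (0.912), among 8769 genes of at least 10 CPM. CIITA was most like MYO9B (0.982), SOGA1 (0.963), ZMIZ1 (0.959), AKNA (0.954) and MEF2D (0.953). MYO9B averaged 91.4 CPM in the combination, 81.8 in anti-PD1, 71.8 in anti-LAG3 and 92.4 in isotype, in the order of CIITA except that isotype and the combination change places. RFTN1 ran between 194.6 and 227.1 CPM. These are the highest of many values over 12 libraries that share arms and doses, and no gene is on both lists.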

How the data were processed

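The tools named in the submitters' processing notes are STAR 2.5.2b, Trimmomatic 0.36, Subread 1.5.2 with featureCounts, and DESeq2, with the build GRCh38; the annotation release, strand setting and handling of multi-mapping reads were not given in the sources used here. The authors deposited raw counts per gene symbol with a gene length (a score, in bases, per the file headers), and for each of the 9 antibody libraries log2 fold changes with standard errors, p-values and adjusted p-values. The labels give polyA RNA as the molecule and total RNA in the protocol. Not used were 4 count columns matching no sample and 36 per-sample columns of the comparison tables.

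Libraries were grouped by treatment label. Genes kept by filterByExpr (minimum count 10; 15535 genes) were TMM-scaled and tested in edgeR 4.0.16 (R 4.3.3) by quasi-likelihood with Benjamini-Hochberg adjustment over all genes and a threshold of 0.05. Arm means came from a model of arm plus dose as factor (6 residual degrees of freedom), and slopes from 1 slope on log10 dose per arm (4 degrees). Depth was 23593973 to 36581754 counts; a count of 0 allows 3 counts, or 0.0838 to 0.129 CPM, by counting error only. The scripts were tested on simulated data. Alternatives were DESeq2 1.42.0, other scalings, filters, covariates and leaving out each library. CPM in the text is TMM-scaled, and ± is SE unless SD is written. The members and gene lists were chosen with earlier results of these data known. Named were all 10 members, other class II genes with at least 10 counts, list genes that passed (up to 5 per list and comparison), each list's most abundant gene, and the 5 genes most alike in pattern.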

Additional observations from a re-analysis of the deposited data

Results flagged for a closer look

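The dose slope of HLA-DRB6 differed between the combination and isotype by -0.71 log2 per 10-fold dose in a test of the difference itself (adjusted p = 4.83e-05, edgeR). It fell within the combination by 0.30 ± 0.07 (adjusted p = 0.0138) and rose within isotype by 0.41 ± 0.07 (adjusted p = 0.00333). Isotype at 1 µg/ml (22.7 CPM) and the combination at 0.01 µg/ml (20.0 CPM) carry these slopes; without the first the isotype slope was 0.07 ± 0.13 (adjusted p = 1.0). Anti-LAG3 had 15.4, 18.5 and 21.4 CPM and anti-PD1 15.7, 15.2 and 15.2 CPM at 0.01, 0.1 and 1 µg/ml. Groups of 3 libraries were not searched for outliers. By the same test 3 listed genes that are not members differed in dose slope from isotype: MIF by -0.34 log2 per 10-fold dose in anti-PD1 and by -0.27 in the combination, CXCR4 by -0.22 and CD82 by 0.26 in the combination. Each missed the threshold without isotype at 1 µg/ml (adjusted p = 1.0, 0.923, 0.93 and 0.141 in that order). That fit has fewer isotype doses and larger standard errors. The differences of MIF and CXCR4 shrank in it, while that of CD82 did not.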

How the results depend on the processing

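No paired analysis was possible because the labels number no replicates, and the dose that the libraries of different arms share is already a term of the fit. The main counts of the 10 genes called were 1 in anti-LAG3 against isotype, 1 in the combination against anti-LAG3 and 0 in the other 4 comparisons of arm means, in the 3 of slopes with isotype and within isotype; slopes within the antibody arms are given above. With the T minus B marker covariate the counts were 0 in anti-LAG3 against isotype and 0 in the combination against anti-LAG3, and 2, 1 and 3 for the slopes of anti-PD1 and of the combination against isotype and within isotype (HLA-DRA and HLA-DQA1; HLA-DRA; both with CD74). With GC and length offsets CD74 took the place of CIITA in anti-LAG3 against isotype, 2 genes (CD74, CIITA) passed in the combination against anti-LAG3, and 2 within isotype. Without the filter on low counts 1, 2 and 2 passed in the slopes of anti-LAG3, anti-PD1 and the combination against isotype, and 3 within isotype. DESeq2 gave 2 and RLE scaling 1 within isotype. The cause was not tested. Leaving out each library gave 0 to 1 in anti-LAG3 and in anti-PD1 against isotype, 0 to 2 in the combination against anti-LAG3, 0 to 1 for the combination slope against isotype and 0 to 2 within isotype.

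Signs turned for HLA-DRB1 in anti-LAG3 against isotype with GC and length offsets (-0.0165 log2) and, on leaving out libraries, for the CD74 slope of the combination against isotype (-0.29 to 0.0011), the HLA-DMA slope within isotype (-0.0141 to 0.22) and the HLA-DRB1 slope within the combination (-0.0024 to 0.15). Of 76 values of the 10 genes with an unadjusted p of 0.05 or more, 48 changed sign under some of the 20 alternatives. Counts over all genes moved widely: 1560 in anti-LAG3 against isotype became 6 to 2045, 594 in anti-PD1 0 to 1044, 1 in the combination 0 to 271, 55 between the combination and anti-PD1 0 to 353, and 893 between the combination and anti-LAG3 47 to 1487. Slope counts of 11, 41 and 719 in anti-LAG3, anti-PD1 and the combination against isotype became 1 to 71, 0 to 196 and 34 to 1009; those of 28, 32, 664 and 133 within anti-LAG3, anti-PD1, combination and isotype became 1 to 101, 0 to 50, 73 to 873 and 0 to 421. Between anti-PD1 and anti-LAG3 the count stayed 0. Depth does not limit the 10 genes, each with at least 1246 counts per library. LAG3 and CD4 had few counts at this depth, and the cause was not tested.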
